A study of Mus musculus with 12 samples.

Results

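The 32 genes described here encode chaperones of the endoplasmic reticulum (ER), the membrane system in which secreted and membrane proteins are folded, and the sensors, transcription factors and targets of the unfolded protein response. They were taken by symbol, through their Ensembl identifiers in GENCODE on GRCm38, from a table of 52638 counted entries. All 32 were found, and all 32 passed the filter on low counts in each of the 5 comparisons. The list holds 3 ER stress sensors, 4 stress transcription factors, 11 chaperones and cofactors of the ER lumen, 3 protein disulfide isomerases, 3 genes of ER-associated degradation, 6 targets of the integrated stress response and 2 genes of translocation into the ER.

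RNA came from the hypothalamus of adult mice. All mice were LepRb-Cre/Cre, which puts Cre recombinase in cells that express the long leptin receptor, and carried R26-GFP:L10a/GFP:L10a, a ribosomal protein L10a tagged with green fluorescent protein. Stat3KO mice were in addition Stat3-flox/flox, so that Cre can remove Stat3, a transcription factor activated by the leptin receptor. Ctrl mice had the Cre and the tag with no floxed Stat3. RNA pulled down with the tagged ribosomes is the bead-bound fraction and what stayed in the lysate is the supernatant (sup. in the plots), which gave 4 groups of 3 libraries from 6 pools of 5 to 8 mice each. The labels name no treatment, and the tag marks every cell type in which the Cre has been active, not a chosen kind of neuron.

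Proteins that misfold in the ER draw the chaperone BiP, the product of Hspa5, away from the sensors IRE1 (Ern1), PERK (Eif2ak3) and ATF6. IRE1 splices the Xbp1 transcript, ATF6 is cut to release a transcription factor, and PERK phosphorylates eIF2α, which slows translation in general and favours that of ATF4. XBP1 and ATF6 raise chaperones, oxidoreductases and degradation factors, while ATF4 raises amino acid synthesis genes, Trib3, Chac1 and Ddit3 (CHOP). Counts per gene do not separate spliced from unspliced Xbp1, and say nothing of phosphorylation or cleavage of the sensors.

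Total counts ranged from 20743217 to 41829907 per library, of which the 32 genes took 0.203% to 0.351%. Neuronal markers summed to between 6731 and 9167 CPM (counts relative to the TMM-scaled library total) in all 12 libraries, and all 13 hypothalamic peptide genes of a marker list were counted in every library. Gfp_L10a stood at 82.3 to 164 CPM on beads and at 7.39 to 15.3 CPM in supernatant. Lepr was 2.37 ± 0.30 (log2, SE) higher on beads in Ctrl and 2.30 ± 0.19 higher in Stat3KO (edgeR quasi-likelihood test, adjusted p = 0.000854 and 8.71e-05, n = 3 pools). On beads Stat3 itself had 143, 175 and 179 CPM in the Ctrl libraries and 114, 149 and 160 CPM in the Stat3KO libraries, a log2 difference of -0.24 ± 0.16 that missed the threshold (adjusted p = 0.999), so the count of Stat3 does not separate the genotypes. A count over all exons cannot show the loss of a floxed part alone.

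Pools numbered 1 stand apart, with an opposite order of the chaperones in the 2 genotypes. Summed over the 11 chaperones, replicates 1, 2 and 3 on beads held 1180, 1667 and 1988 CPM in Ctrl and 1669, 1194 and 1099 CPM in Stat3KO. In supernatant the sums were 792, 1037 and 1177 CPM in Ctrl and 1046, 899 and 758 CPM in Stat3KO. Replicate 1 was thus the lowest of the Ctrl libraries and the highest of the Stat3KO libraries in both fractions. Over the 16 chaperones, isomerases and translocation genes, replicate 1 was the lowest Ctrl library for 13 genes on beads and 12 in supernatant. It was the highest Stat3KO library for 15 genes in each fraction. Over all 32 genes it was the lowest Ctrl library for 19 and the highest for 11 on beads, and for 18 and 12 in supernatant. In Stat3KO it was the highest for 24 and the lowest for 5 on beads, and for 24 and 3 in supernatant. Of the 4 stress transcription factors, 3 on beads and 4 in supernatant were highest in Ctrl replicate 1. Across all 19122 genes with enough counts, replicate 1 was the highest of 3 in 40.9% and the lowest in 38.4% on Ctrl beads. These shares were 40.9% and 40.6% on Stat3KO beads, 42.2% and 38.8% in Ctrl supernatant, and 39.8% and 39.4% in Stat3KO supernatant. Replicate 1 was thus often at either end over all genes as well. Replicate 1 also had the fewest total counts in both Ctrl groups (24536698 on beads, 20743217 in supernatant), whereas in Stat3KO supernatant the library with the fewest counts, replicate 3 with 24552775, was the lowest in the chaperone sum. On Stat3KO beads it was the other way round: replicate 1 had the fewest counts (34332749) and the highest chaperone sum. The part of depth in this order was not tested. Results that rest on replicate 1 are given below with and without it.

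**Figure D1:**
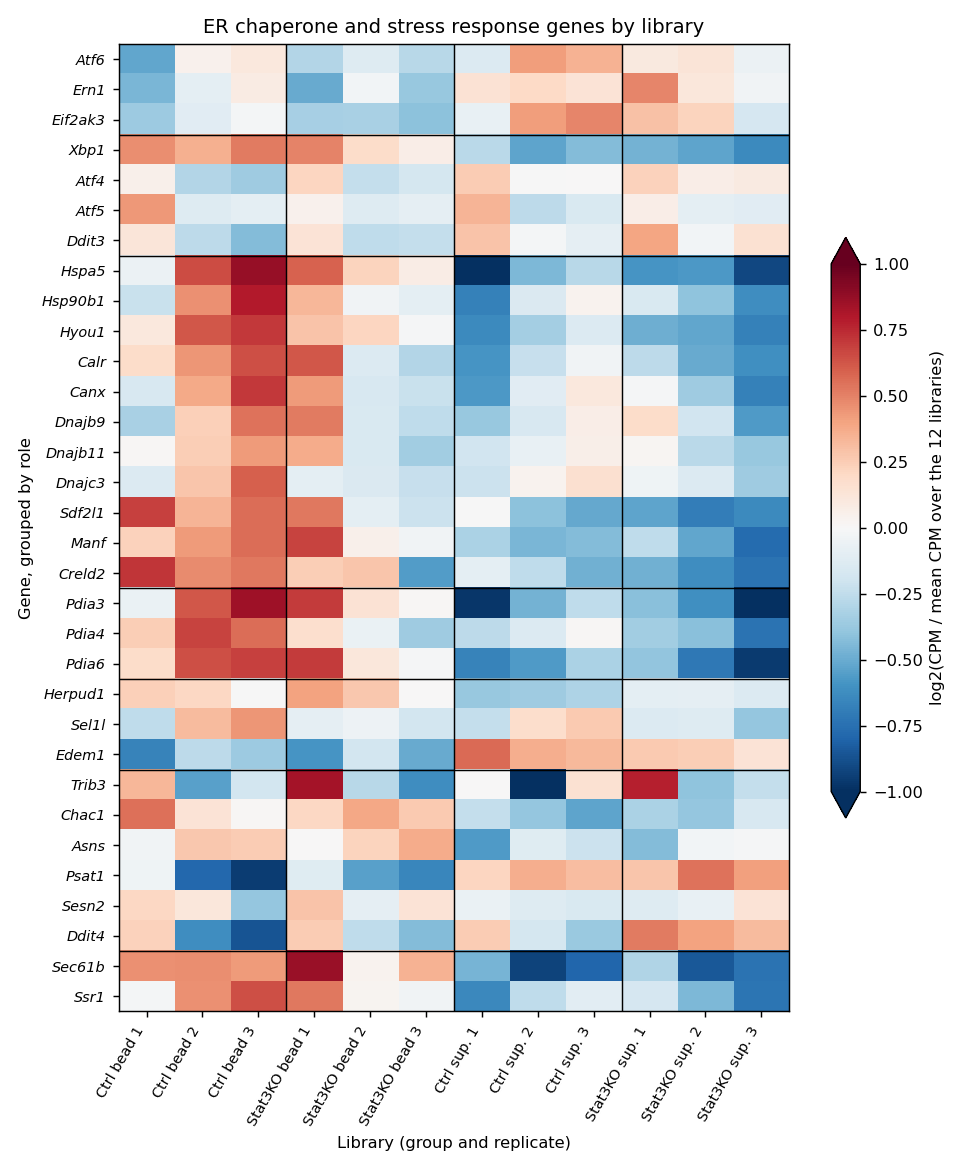
Level of the 32 genes (rows, grouped by role) in the 12 libraries (columns), as log2 of CPM over the gene's mean CPM in all libraries, with colours saturating at 1 in either direction. Most chaperone, isomerase and translocation rows are redder in the bead-bound columns, with Ctrl replicate 1 paler than Ctrl replicates 2 and 3, and Stat3KO replicate 1 redder than Stat3KO replicates 2 and 3.

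To compare genes with each other, levels were divided by exonic length (CPM per kb, mean of 12 libraries). Atf4 was the highest at 80.8 CPM per kb, above 97.2% of 19081 genes, followed by the lectin chaperones Canx at 69.7 and Calr at 69.0, the isomerase Pdia3 at 56.9 and Hspa5 at 53.0. Asns, which makes asparagine, and Hsp90b1, the ER form of HSP90, came next with 49.8 and 44.9 CPM per kb. At the low end stood Trib3, a pseudokinase of the ATF4 arm, with 0.373 CPM per kb and as few as 15 counts in a library. The sensors were low as well: Ern1 had 1.38, Eif2ak3 3.00 and Atf6 3.51 CPM per kb, against 28.5 for Xbp1, the transcript that IRE1 splices.

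**Figure D2:**
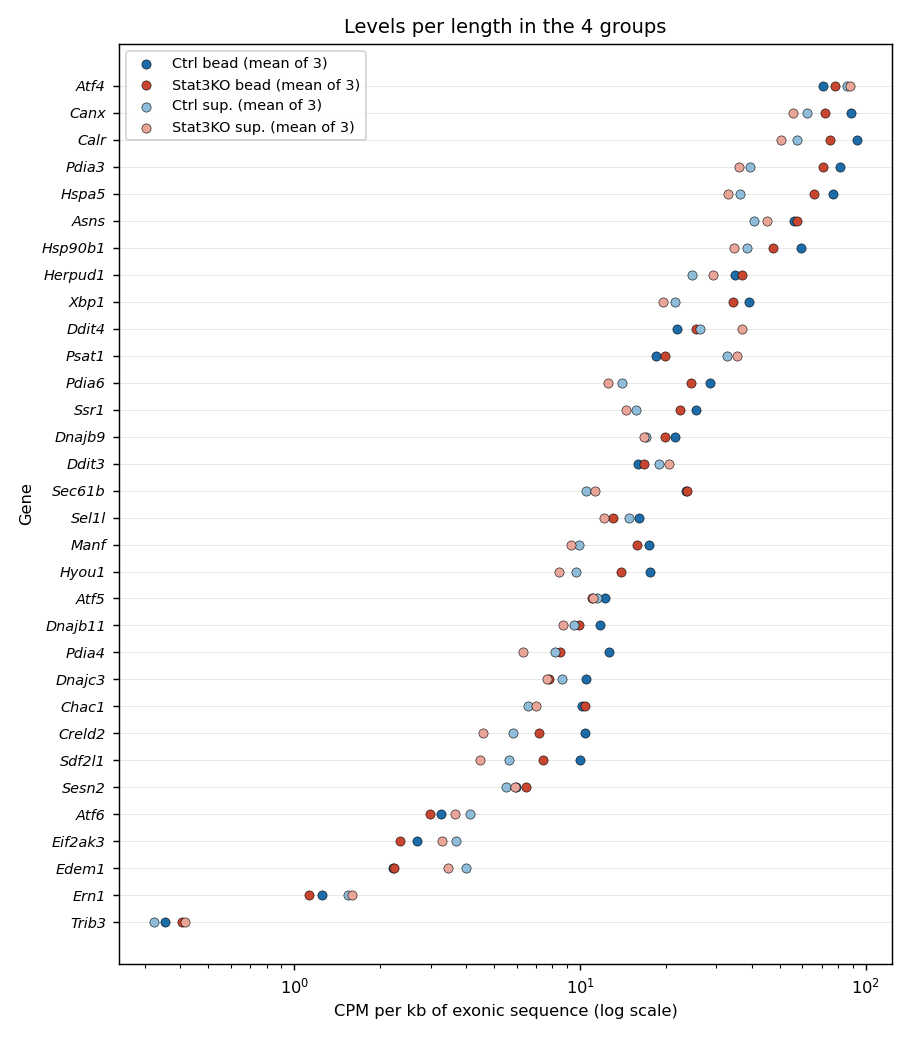
Level per length of each gene (CPM per kb of exonic sequence, log axis) in the 4 groups, each point the mean of 3 libraries. Levels run from 0.373 CPM per kb for Trib3 to 80.8 for Atf4 as means of all libraries, and the bead-bound points lie to the right for the chaperones and to the left for the sensors, Atf4, Ddit3, Edem1, Psat1 and Ddit4.

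Several of these genes share promoter elements that the stress response is known to use, and the sequences are shown so that each element can be read in its place. RefSeq start sites on GRCm38.p6 gave 31 windows, from 250 bases before to 50 bases after a start, for 29 of the 32 genes. Hyou1, Manf and Atf6 had no window. The ER stress element, bound by ATF6 with NF-Y and by XBP1, was searched as CCAAT and CCACG with 9 bases between them, on both strands. It was found in 7 of the 31 windows, those of Hspa5, Hsp90b1, Calr, Canx, Creld2, Dnajc3 and Pdia6, against 39 of all 32851 windows of the same length (0.119%). In the lines below the element is in capitals, and where it lies on the opposite strand it reads CGTGG to ATTGG. Hspa5, on the plus strand at chr2:34771840-34772089, and Hsp90b1, on the minus strand at chr10:86705445-86705694, are shown from 250 bases before the start to the last base before it.
Hspa5: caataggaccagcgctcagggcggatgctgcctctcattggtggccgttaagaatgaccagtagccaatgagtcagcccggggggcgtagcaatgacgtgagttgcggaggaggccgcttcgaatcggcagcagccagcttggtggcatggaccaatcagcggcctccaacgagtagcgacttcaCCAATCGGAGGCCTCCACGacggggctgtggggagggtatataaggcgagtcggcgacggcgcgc
Hsp90b1: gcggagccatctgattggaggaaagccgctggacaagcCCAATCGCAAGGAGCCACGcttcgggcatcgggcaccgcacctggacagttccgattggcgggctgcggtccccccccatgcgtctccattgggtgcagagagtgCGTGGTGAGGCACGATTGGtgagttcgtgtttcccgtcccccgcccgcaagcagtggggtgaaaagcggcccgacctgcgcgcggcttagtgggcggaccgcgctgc
The Hsp90b1 window holds the element in both orientations, 212 to 194 and 107 to 89 bases before the start, and the Hspa5 element lies 65 to 47 bases before it.

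In the other 5 genes the element with 15 bases on either side is shown, at chr8:84847060-84847108 (Calr, minus strand), chr11:50325785-50325833 (Canx, minus strand), chr15:88819505-88819553 (Creld2, plus strand), chr14:118937812-118937860 (Dnajc3, plus strand) and chr12:17266476-17266524 (Pdia6, plus strand).
Calr: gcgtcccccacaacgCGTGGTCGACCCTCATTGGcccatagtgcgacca
Canx: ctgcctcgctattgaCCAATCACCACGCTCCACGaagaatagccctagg
Creld2: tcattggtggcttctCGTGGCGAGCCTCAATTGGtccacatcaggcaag
Dnajc3: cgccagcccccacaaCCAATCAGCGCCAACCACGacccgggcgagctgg
Pdia6: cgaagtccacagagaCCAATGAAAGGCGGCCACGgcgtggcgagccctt
Elements of these genes all lie within 162 bases of the start, on the sense strand in Canx, Dnajc3 and Pdia6 and on the opposite strand in Calr and Creld2.

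The ER stress element II, ATTGG and CCACG with 1 base between them, was found in 2 windows, those of Herpud1 and Dnajb11, against 12 of 32851 (0.0365%). The C/EBP-ATF response element (CARE), which ATF4 binds, was searched as TGATG and AA with 1 base between them and found in 4 windows, those of Asns, Chac1, Herpud1 and Trib3, against 1304 of 32851 (3.97%). No match of any of the 3 motifs overlapped another. Herpud1 (chr8:94386302-94386402, plus strand) is shown because it holds both kinds, with the CARE in reverse as TTGCATCA, as in Chac1. Asns (chr6:7693210-7693247, minus strand) and Chac1 (chr2:119351034-119351071, plus strand) are shown as the other genes with a CARE before the start, and of Dnajb11 only the match, 8 to 18 bases after its start, is given (chr16:22857852-22857862, plus strand).
Herpud1: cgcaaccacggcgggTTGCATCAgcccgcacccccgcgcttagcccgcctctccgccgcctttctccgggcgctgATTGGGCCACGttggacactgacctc
Asns: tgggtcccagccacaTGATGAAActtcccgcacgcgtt
Chac1: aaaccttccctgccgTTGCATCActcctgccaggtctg
Dnajb11: ATTGGCCCACG
A match describes these letters only, and no match in the other windows says nothing about whether a factor acts there.

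The first question is how the RNA on tagged ribosomes differed from the RNA left in the supernatant of the same pools. In Ctrl mice, most folding genes were higher on beads. Of the 32 genes, 15 were higher and 2 were lower in bead-bound RNA at an adjusted p under 0.05 (edgeR quasi-likelihood test, 3 against 3 libraries), where 20.7% of 18036 genes tested were higher and 21.2% lower. The median log2 fold change was 0.48 over the 32 genes and -0.01 over all genes tested. By role, 6 of 11 chaperones, 3 of 3 isomerases, 2 of 2 translocation genes, 1 of 4 transcription factors, 1 of 3 degradation genes and 2 of 6 stress response targets were higher, and none of the 3 sensors was called.

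In Stat3KO mice, 10 of the 32 genes were higher and 4 lower on beads, where 14.7% of 18107 genes were higher and 17.3% lower, and the median was 0.34 against -0.02 over all genes. All 10 that were higher in Stat3KO were also among the 15 in Ctrl: Xbp1, Hspa5, Hyou1, Sdf2l1, Manf, Pdia3, Pdia6, Chac1, Sec61b and Ssr1. Edem1 and Psat1 were lower in both. The bead-bound and supernatant libraries of a number were taken as fractions of the same pool. With the pool as a block, the Ctrl counts were 20 higher (background 29.4%) and 7 lower (29%), and the Stat3KO counts 17 higher (23.7%) and 7 lower (26%), and every gene called without the block was called with it. Scaled to library totals without TMM, the counts were 13 higher (13.2%) and 4 lower (27.2%) in Ctrl, and 8 higher (10.2%) and 5 lower (20.5%) in Stat3KO. That scaling moved the median of all genes to -0.16 in Ctrl and -0.12 in Stat3KO, and turned the sign of Atf5, Sel1l, Trib3 and Sesn2 in Ctrl and of Dnajc3 and Sel1l in Stat3KO, none of which was called.

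**Figure D3:**
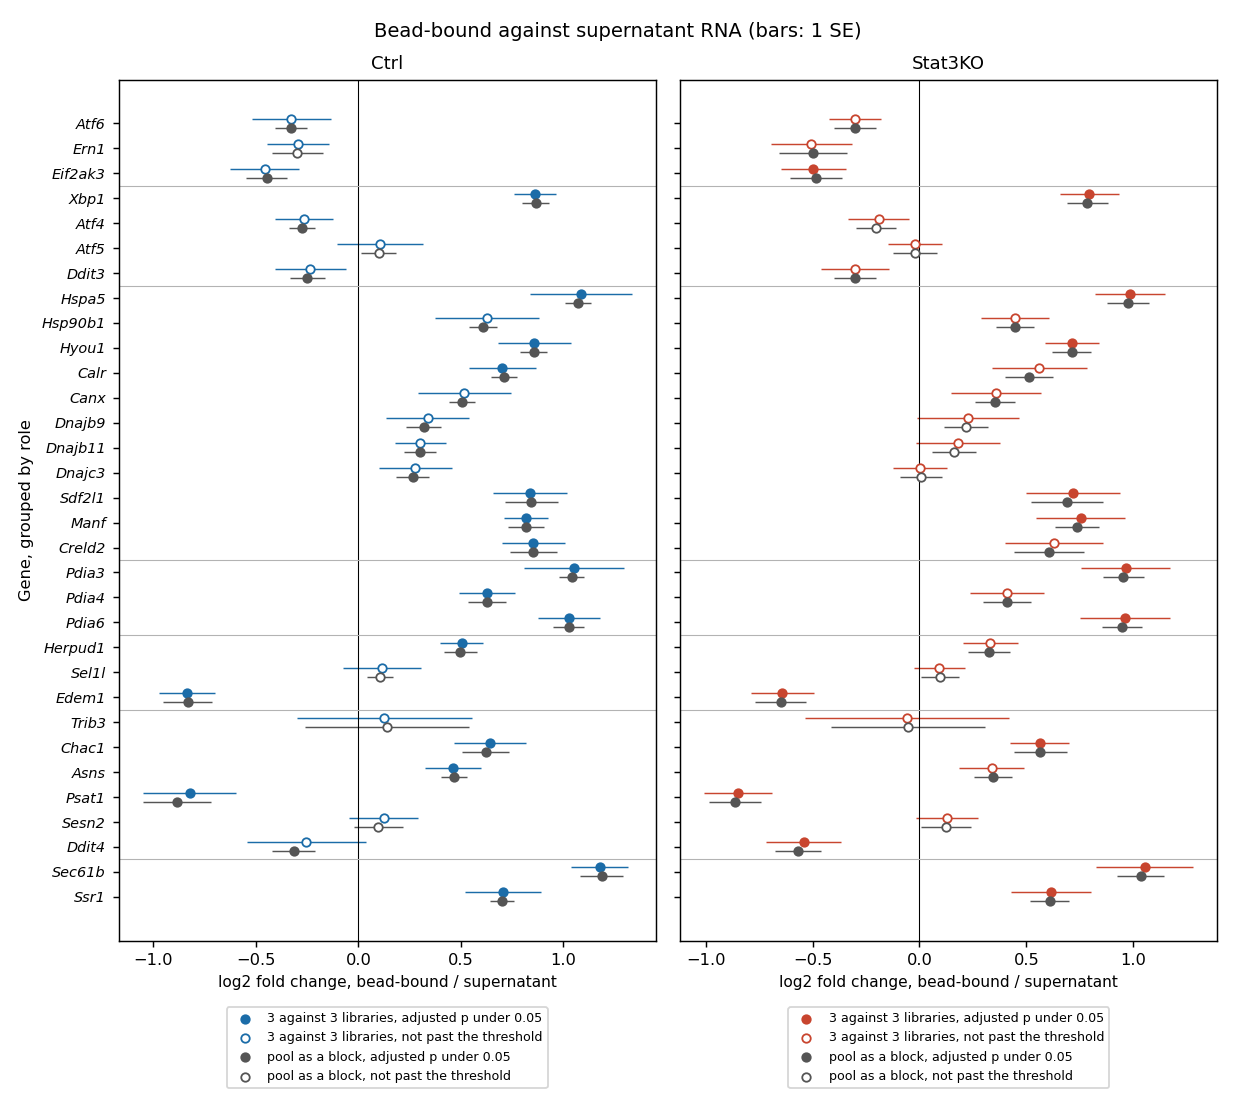
Log2 fold change of bead-bound over supernatant RNA for each of the 32 genes (rows, grouped by role) in Ctrl (left) and Stat3KO (right), with bars of 1 SE, from the fit of 3 against 3 libraries (coloured) and the fit with the pool as a block (grey). Filled points passed an adjusted p of 0.05. Chaperones, isomerases and translocation genes lie to the right of 0 in both panels, except Dnajc3, which lies at 0 in Stat3KO and turns sign without TMM, and the sensors, Atf4, Ddit3, Edem1, Psat1 and Ddit4 to the left.

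Within single pools the direction was the same for most genes. Of the 32 genes, 19 were higher on beads in 6 of 6 pools, where 28.4% of 19122 genes were, and 8 were lower in 6 of 6, where 30.3% were. The 19 include 10 of 11 chaperones (Dnajc3 in 4 of 6 pools), all 3 isomerases and both translocation genes. The 8 that were lower in every pool are the sensors Atf6, Ern1 and Eif2ak3, the transcription factors Atf4 and Ddit3, the mannosidase-like Edem1, the serine synthesis enzyme Psat1 and the mTORC1 inhibitor Ddit4.

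The 3 sensors of ER stress thus had lower bead-bound than supernatant values in every pool. Eif2ak3 was at 14.0, 16.7 and 17.8 CPM on beads and at 17.2, 24.1 and 25.3 CPM in supernatant of Ctrl, and at 14.4, 14.4 and 13.6 against 22.1, 21.1 and 16.0 CPM in Stat3KO. The fold change was called in Stat3KO (log2 -0.50 ± 0.15, adjusted p = 0.0342) and just missed in Ctrl (-0.46 ± 0.17, adjusted p = 0.0568). The Stat3KO fractions did not overlap, and the Ctrl fractions did by 1 library. With the pool as a block Eif2ak3 was called lower in both genotypes (adjusted p = 0.00349 in Ctrl, 0.00377 in Stat3KO), as was Atf6 (0.00489 and 0.0206), and Ern1 in Stat3KO (0.0174) but not in Ctrl (0.0619).

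Xbp1 was the 1 transcription factor of the 4 that was called. It stood at 128, 119 and 133 CPM on beads and at 76.7, 64.2 and 68.5 CPM in supernatant of Ctrl (log2 0.86 ± 0.10, adjusted p = 0.000673), and at 130, 105 and 97.2 against 66.7, 64.4 and 59.5 CPM in Stat3KO (0.79 ± 0.14, adjusted p = 0.0033). Its fractions were far apart in all 6 pools, with pool ratios between 0.71 and 0.97 on the log2 scale. Atf4, the effector of the PERK arm, went the other way: 198, 155 and 149 CPM on beads against 227, 190 and 191 CPM in supernatant of Ctrl (-0.27 ± 0.14, adjusted p = 0.161), with Stat3KO at -0.19 ± 0.14 (adjusted p = 0.329). Ddit3, whose product CHOP promotes cell death under lasting stress, had log2 fold changes of -0.24 ± 0.17 in Ctrl and -0.30 ± 0.16 in Stat3KO (adjusted p = 0.3 and 0.174). With the pool as a block, Atf4 was called lower in Ctrl (adjusted p = 0.00442) and not in Stat3KO (0.0857), and Ddit3 was called lower in both (0.0286 and 0.0202).

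Among the chaperones, Hspa5 had the largest difference. Its 3 Ctrl libraries held 215, 351 and 410 CPM on beads and 111, 164 and 184 CPM in supernatant, a mean of 325 ± 99.8 (SD, n = 3) against 153 ± 37.7, and the log2 fold change was 1.08 ± 0.25 (adjusted p = 0.00935). In Stat3KO it was at 337, 261 and 235 CPM on beads and at 149, 151 and 119 CPM in supernatant (0.99 ± 0.16, adjusted p = 0.00259). Every bead-bound library was above every supernatant library, also across genotypes. Hyou1, the nucleotide exchange partner of BiP, was higher by 0.86 ± 0.18 in Ctrl and 0.71 ± 0.13 in Stat3KO (adjusted p = 0.00582 and 0.0035). Manf, a secreted survival factor that binds BiP, was higher by 0.82 ± 0.11 and 0.75 ± 0.21 (0.000962 and 0.0221), and Sdf2l1, a cofactor of BiP and its J proteins, by 0.84 ± 0.18 and 0.72 ± 0.22 (0.00729 and 0.0332).

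Calr, the soluble lectin chaperone, and Creld2, a secreted protein of the ER stress response, were called in Ctrl only. Calr was at 226, 269 and 311 CPM on beads and 132, 170 and 194 CPM in supernatant of Ctrl (0.70 ± 0.16, adjusted p = 0.00958), and at 305, 180 and 163 against 166, 140 and 130 CPM in Stat3KO (0.56 ± 0.22, adjusted p = 0.0811). The Ctrl fractions did not overlap, while the lowest Stat3KO bead-bound library lay just under the highest supernatant library. Creld2 was higher by 0.85 ± 0.15 in Ctrl (adjusted p = 0.0033), and in Stat3KO the value was 0.63 ± 0.23 (0.0606), which passed with the pool as a block (0.00645). Hsp90b1 was not called in either genotype (0.63 ± 0.25, adjusted p = 0.0769 in Ctrl, and 0.45 ± 0.16, adjusted p = 0.0588 in Stat3KO). With the pool as a block Calr and Hsp90b1 were called in both (Calr 1.3e-05 and 0.00138, Hsp90b1 4.37e-05 and 0.000785). That these calls differ between genotypes does not show that the ratios do, a question tested further on.

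The protein disulfide isomerases, which form and shuffle disulfide bonds, were higher on beads in 3 of 3 cases in Ctrl and in 2 of 3 in Stat3KO. Pdia3, the partner of calnexin and calreticulin, was at 170, 275 and 322 CPM on beads and at 91.0, 128 and 150 CPM in supernatant of Ctrl (1.05 ± 0.24, adjusted p = 0.00975), and Stat3KO gave 0.96 ± 0.21 (0.00804). Pdia6, which also acts on the sensors, was higher by 1.03 ± 0.15 in Ctrl and by 0.96 ± 0.21 in Stat3KO (0.00148 and 0.00877). Pdia4 was called in Ctrl (0.63 ± 0.14, adjusted p = 0.00746) and missed in Stat3KO (0.41 ± 0.17, 0.0961), where the block called it (0.00737). Of the translocation genes, Sec61b, a subunit of the channel through which new proteins enter the ER, had the largest fold change of all 32 genes in Ctrl. It was at 30.1, 30.2 and 29.4 CPM on beads and 15.8, 11.5 and 12.6 CPM in supernatant (1.18 ± 0.14, adjusted p = 0.000584), with 1.05 ± 0.23 in Stat3KO (0.0083). Ssr1, of the translocon-associated complex, was higher by 0.71 ± 0.19 and 0.61 ± 0.19 (0.0164 and 0.0331).

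ER-associated degradation, which pulls misfolded proteins back to the cytosol, did not move as a block. Herpud1, a scaffold of the degradation complex, was higher on beads in Ctrl (0.50 ± 0.11, adjusted p = 0.0065) and missed the threshold in Stat3KO (0.33 ± 0.13, 0.078; with the pool as a block 0.013). Edem1, which helps select misfolded glycoproteins, was lower: 12.1, 16.0 and 14.9 CPM on beads against 28.4, 24.6 and 24.0 CPM in supernatant of Ctrl (-0.84 ± 0.13, adjusted p = 0.00219), and -0.64 ± 0.15 in Stat3KO (0.0105). No bead-bound library of either genotype reached the lowest supernatant library. Sel1l, the adaptor of the ubiquitin ligase, was at 100 to 163 CPM on beads and at 91.9 to 144 CPM in supernatant over all 12 libraries.

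Targets of the integrated stress response split as well. Chac1, which degrades glutathione, was higher on beads in both genotypes (0.64 ± 0.18, adjusted p = 0.0193 in Ctrl, 0.56 ± 0.14, adjusted p = 0.0139 in Stat3KO), and Asns in Ctrl (0.46 ± 0.14, adjusted p = 0.0271). In Stat3KO Asns was at 0.34 ± 0.15 (adjusted p = 0.116, and 0.00541 with the pool as a block). Psat1 was lower, at 110, 65.9 and 58.6 CPM on beads against 132, 146 and 140 CPM in supernatant of Ctrl (-0.82 ± 0.23, adjusted p = 0.0197) and -0.85 ± 0.16 in Stat3KO (0.00459). Replicate 1 stood nearest to the supernatant in both genotypes. Ddit4 was lower in Stat3KO, at 57.9, 40.6 and 35.8 CPM on beads against 69.5, 64.3 and 60.5 CPM in supernatant (-0.54 ± 0.18, adjusted p = 0.0425), and in Ctrl the difference was -0.25 ± 0.29 (adjusted p = 0.503, and 0.0261 with the pool as a block).

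Some of these calls rest on single libraries, although no sign changed. In Ctrl, Chac1 lost its call without supernatant replicate 2 or 3 (adjusted p up to 0.0642), Asns without bead-bound replicate 2 or 3 or supernatant replicate 1 or 3 (up to 0.0945), Psat1 without replicate 2 of either fraction (up to 0.079) and Ssr1 without bead-bound replicate 2 or supernatant replicate 1 or 2 (up to 0.0593). In Stat3KO, Edem1 and Chac1 lost theirs without supernatant replicate 2 (0.054 and 0.0716), Manf and Ssr1 without supernatant replicate 2 or 3 (up to 0.0869 and 0.118), and Sdf2l1, Eif2ak3 and Ddit4 without any of 4 or 5 libraries (up to 0.11, 0.14 and 0.143). Over these fits the count of genes higher on beads ranged from 13 to 20 in Ctrl, where 12.2% to 22.5% of all genes were. In Stat3KO it ranged from 6 to 13, where 6.49% to 15.6% of all genes were. The lowest Stat3KO count was without supernatant replicate 2, the fit with the lowest share of all genes. The count of lower genes was 1 in Ctrl without replicate 2 of either fraction (14.4% and 14.6% of all genes lower) and 5 without bead-bound replicate 1 (24.4%). In Stat3KO it was 1 without supernatant replicate 2 (9.07% of all genes lower), and 2 without supernatant replicate 1 (13.98%) or bead-bound replicate 3 (11.86%).

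**Figure D4:**
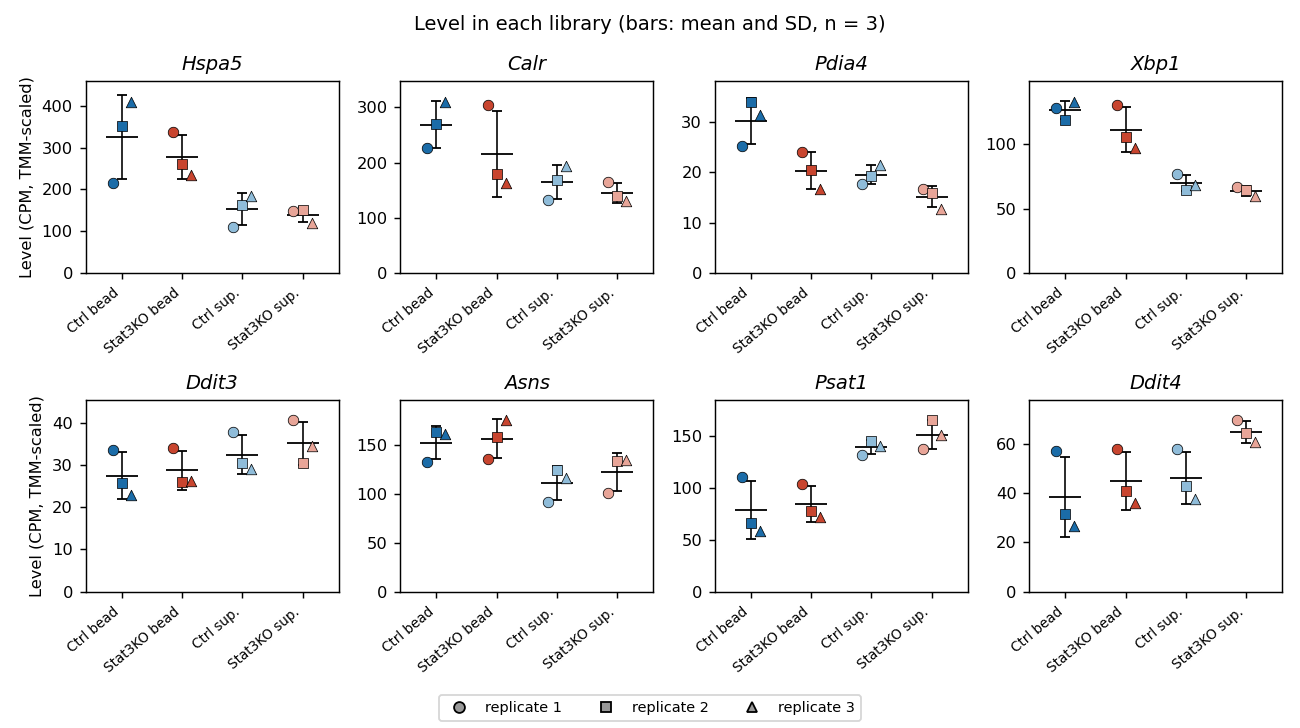
Level (CPM) of 8 genes of different roles in each of the 12 libraries, with replicate numbers as symbols and the mean and SD of each group as bars. Hspa5, Calr, Pdia4 and Xbp1 are higher on beads, Psat1 is lower, and replicate 1 (circles) is the lowest Ctrl and the highest Stat3KO bead-bound library for Hspa5, Calr and Pdia4.

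Cell type markers moved with the same comparison. In Ctrl, 4 of 8 neuronal and 7 of 8 endothelial markers were higher on beads. The neuronal list was split, with 1 of 8 called lower in Ctrl, and 2 higher and 1 lower in Stat3KO. In Ctrl, 7 of 8 astrocyte, 8 of 8 oligodendrocyte and 7 of 8 microglial markers were lower. Over all genes tested, 20.7% were higher and 21.2% lower in Ctrl, and 14.7% higher and 17.3% lower in Stat3KO. Oligodendrocyte markers summed to 1788 to 3063 CPM on beads and 5549 to 7015 CPM in supernatant of Ctrl, and to 1706 to 2459 and 4581 to 5195 CPM in Stat3KO. Endothelial markers summed to 57.9, 70.3 and 140 CPM on Ctrl beads and 16.2, 153 and 110 CPM on Stat3KO beads, and to between 18.8 and 26.4 CPM in all supernatants. None of these markers was at 0 in all libraries. Their part in the levels of the chaperones was not tested, and in bulk RNA more cells of a type and more RNA per cell cannot be told apart.

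Other genes of the same pathway were counted from 5 lists of 112 genes, of which 110 could be tested. In Ctrl, 48 were higher and 9 lower on beads, with a median of 0.33, where 20.7% of all genes tested were higher and 21.2% lower. In Stat3KO 32 were higher and 10 lower, with a median of 0.21, where 14.7% were higher and 17.3% lower. Of 22 other genes of translocation and signal peptide cleavage, 14 were higher and 1 lower in Ctrl (12 and 1 in Stat3KO), led by the signal peptidase subunit Spcs1 (1.00 ± 0.12, adjusted p = 0.000594) and the translocon-associated Ssr2 and Ssr4 (both 0.99). Of 27 genes of glycosylation and folding, 15 were higher and 1 lower in Ctrl (9 and 2 in Stat3KO), led by Sdf2 (1.09 ± 0.10, adjusted p = 0.000202), the prolyl isomerase Fkbp11 (1.04 ± 0.25) and the BiP exchange factor Sil1 (1.03 ± 0.11). In the share called higher, the other 3 lists lay nearer to all genes. Of 17 other degradation genes 5 were higher and 0 lower in Ctrl, and 3 higher and 0 lower in Stat3KO. Ctrl values were 0.78 ± 0.14 for Vcp, the ATPase that extracts proteins from the ER, and 0.77 ± 0.11 for the mannosidase Man1b1. The regulators gave 6 higher and 3 lower of 19 in Ctrl (3 and 2 in Stat3KO), among them in Ctrl Atf3 at 1.62 ± 0.32 and Nfe2l2, a factor of the oxidative stress response, at -1.27 ± 0.22. Other targets of the integrated stress response gave 8 higher and 4 lower of 25 in Ctrl (5 and 5 in Stat3KO), with in Ctrl the cystine carrier Slc7a11 at -1.38 ± 0.16 and the amino acid carrier Slc7a5 at 0.81 ± 0.13.

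The next question is whether the 32 genes differed between Stat3KO and Ctrl mice. In bead-bound RNA none passed the threshold, either higher or lower, where 0.421% of 17354 genes were higher and 0.0288% lower. DESeq2 and limma-voom also called 0 of the 32. An unadjusted p under 0.05 was found for 3 of them, Pdia4, Creld2 and Dnajc3, which is 3 of 32 beside 4.11% of all genes. The median log2 fold change was -0.17 over the 32 genes and -0.01 over all genes tested, with 21 negative and 11 positive signs. All 11 chaperones, all 3 isomerases and all 3 sensors had negative values, and all 6 targets of the integrated stress response had positive ones, between 0.03 and 0.22. Leaving out 1 library turned the sign of Trib3, Chac1, Asns, Psat1 and Sesn2 in at least 1 fit. The 25 other targets of that response split into 12 positive and 13 negative, with a median of -0.02. Glial markers had negative values in the same comparison with none called: 8 of 8 of microglia (median -0.32), 7 of 8 of oligodendrocytes (median -0.27) and 5 of 8 of astrocytes (median -0.21), of which 0, 0 and 1 had an unadjusted p under 0.05. Their part in the values of the 32 genes was not tested.

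On beads Pdia4 had 25.2, 34 and 31.4 CPM in the Ctrl libraries and 23.9, 20.4 and 16.7 CPM in the Stat3KO libraries, a log2 difference of -0.57 ± 0.19 (adjusted p = 0.841, unadjusted 0.0113). Creld2 was at 15.7, 13.3 and 13.8 CPM against 11.3, 11.6 and 6.49 CPM (-0.54 ± 0.23, unadjusted p = 0.0422, adjusted 0.999). These are the 2 of 32 genes whose Stat3KO libraries all lay below all Ctrl libraries, where 4.27% of genes did so, and none of the 32 lay above, where 5.1% did. Dnajc3, a J protein that also inhibits PERK, was at 40.6, 54.0 and 67.4 CPM against 41.6, 40.3 and 37.9 CPM (-0.44 ± 0.19, unadjusted p = 0.0393, adjusted 0.999), and its groups overlapped through Ctrl replicate 1. Hspa5 differed by -0.23 ± 0.23, Hsp90b1 by -0.32 ± 0.23, Calr by -0.31 ± 0.23 and Xbp1 by -0.19 ± 0.15, while Atf4, Ddit3, Herpud1 and Asns were at 0.13 ± 0.17, 0.07 ± 0.19, 0.08 ± 0.15 and 0.03 ± 0.15, each with an adjusted p of 0.999.

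In supernatant RNA 0 of the 32 genes passed in either direction, where 0% of 18547 genes were higher and 0.0108% lower. DESeq2 and limma-voom again called 0 of them. An unadjusted p under 0.05 was found for 4 genes, beside 6.2% of all genes. Ddit4 was at 57.9, 42.9 and 37.5 CPM in Ctrl and 69.5, 64.3 and 60.5 CPM in Stat3KO (0.49 ± 0.15, unadjusted p = 0.00643, adjusted 0.573), and with no filter on low counts its adjusted p was 0.0234. Herpud1 was at 56.2, 57.2 and 59.0 CPM against 68.4, 68.6 and 66.7 CPM (0.23 ± 0.10, unadjusted p = 0.0318, adjusted 0.77). In both genes every Stat3KO library lay above every Ctrl library, as did those of 6.4% of genes.

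On the lower side Pdia4 was at 17.8, 19.4 and 21.5 CPM in Ctrl and 16.7, 16.0 and 12.8 CPM in Stat3KO supernatant (-0.37 ± 0.14, unadjusted p = 0.0192, adjusted 0.71). Sel1l was at 102, 136 and 144 CPM against 109, 110 and 91.9 CPM (-0.30 ± 0.14, unadjusted p = 0.0499, adjusted 0.804). Sdf2l1, Pdia4 and Edem1 had all Stat3KO libraries below all Ctrl libraries, where 6.26% of genes did. The median over the 32 genes was -0.14 and over all genes -0.00, again with all 11 chaperones negative and all 6 stress response targets positive. Of the 25 other targets of that response 15 were positive and 10 negative, with a median of 0.02. Both fractions come from the same pools, so the like signs in supernatant are not a separate set of mice. No glial marker was called in this comparison, of which 4 astrocyte, 5 oligodendrocyte and 3 microglial markers had an unadjusted p under 0.05. All 8 oligodendrocyte and all 8 microglial markers had negative values, with medians of -0.51 and -0.36, and microglial markers summed to 90.8 to 94.6 CPM in Ctrl and 57.7 to 86.6 CPM in Stat3KO. Their part in the values of the 32 genes was not tested.

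Leaving out replicate 1 of both genotypes changed these counts. That subset was taken with the order in replicate 1 already known. Most chaperones, isomerases and translocation genes were lowest there in Ctrl and highest there in Stat3KO. Lower Stat3KO values without replicate 1 thus follow in part from the choice. The counts are a description and support no difference between genotypes. With replicates 2 and 3 alone (2 against 2 libraries), 15 of the 32 genes were lower in Stat3KO bead-bound RNA, where 5.1% of 17543 genes were lower, and 0 were higher, where 1.56% were. DESeq2 and limma-voom were not run on these 4 libraries. At an unadjusted p under 0.05 there were 21 of the 32 genes on beads and 18 in supernatant. The share of all genes under that p was not computed for this subset, so these counts cannot be set against a background. The 15 are 10 of 11 chaperones (all but Creld2), all 3 isomerases, Sel1l and Ssr1. In supernatant 13 were lower, where 4.22% of 18678 genes were, and 1, Ddit4, was higher, where 1.07% were. Those 13 are 7 of 11 chaperones, all 3 isomerases, Atf6, Sel1l and Ssr1. The median over the 32 genes was -0.42 on beads and -0.28 in supernatant.

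The values of single genes show how much rests on pool 1. Without it, Hspa5 differed by -0.64 on the log2 scale in bead-bound RNA, with 351 and 410 CPM in Ctrl and 261 and 235 CPM in Stat3KO. With it, replicate 1 brings 215 CPM to Ctrl and 337 CPM to Stat3KO. Calr without pool 1 was at -0.78, Hsp90b1 at -0.73 and Pdia4 at -0.84. Calr in replicate 1 was at 226 CPM in Ctrl and 305 CPM in Stat3KO, the reverse of replicates 2 and 3. In supernatant Hspa5 was at -0.38, Calr at -0.44 and Hsp90b1 at -0.47 without pool 1, and Ddit4 at 0.62.

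Transcription factors and amino acid genes did not pass with replicates 2 and 3 alone. Xbp1 was at -0.34, Atf4 at 0.09, Ddit3 at 0.08, Herpud1 at 0.01 and Asns at 0.01 in bead-bound RNA. Replicates 1 and 2 alone, and replicates 1 and 3 alone, called 0 of the 32 genes in either fraction with edgeR, the only test run there, with bead-bound medians of 0.00 and -0.10. At an unadjusted p under 0.05 they gave 0 and 1 genes on beads and 1 in supernatant each, again with no share of all genes computed. The replicate numbers do not pair mice of the 2 genotypes, and which pools stand for their genotype cannot be told from 3 pools. Endothelial markers also set replicate 1 apart on Stat3KO beads (16.2 CPM against 153 and 110), and hypothalamic peptide genes summed to 3855 CPM there against 2200 and 1784. The part of these cells in the order of the chaperones was not tested.

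**Figure D5:**
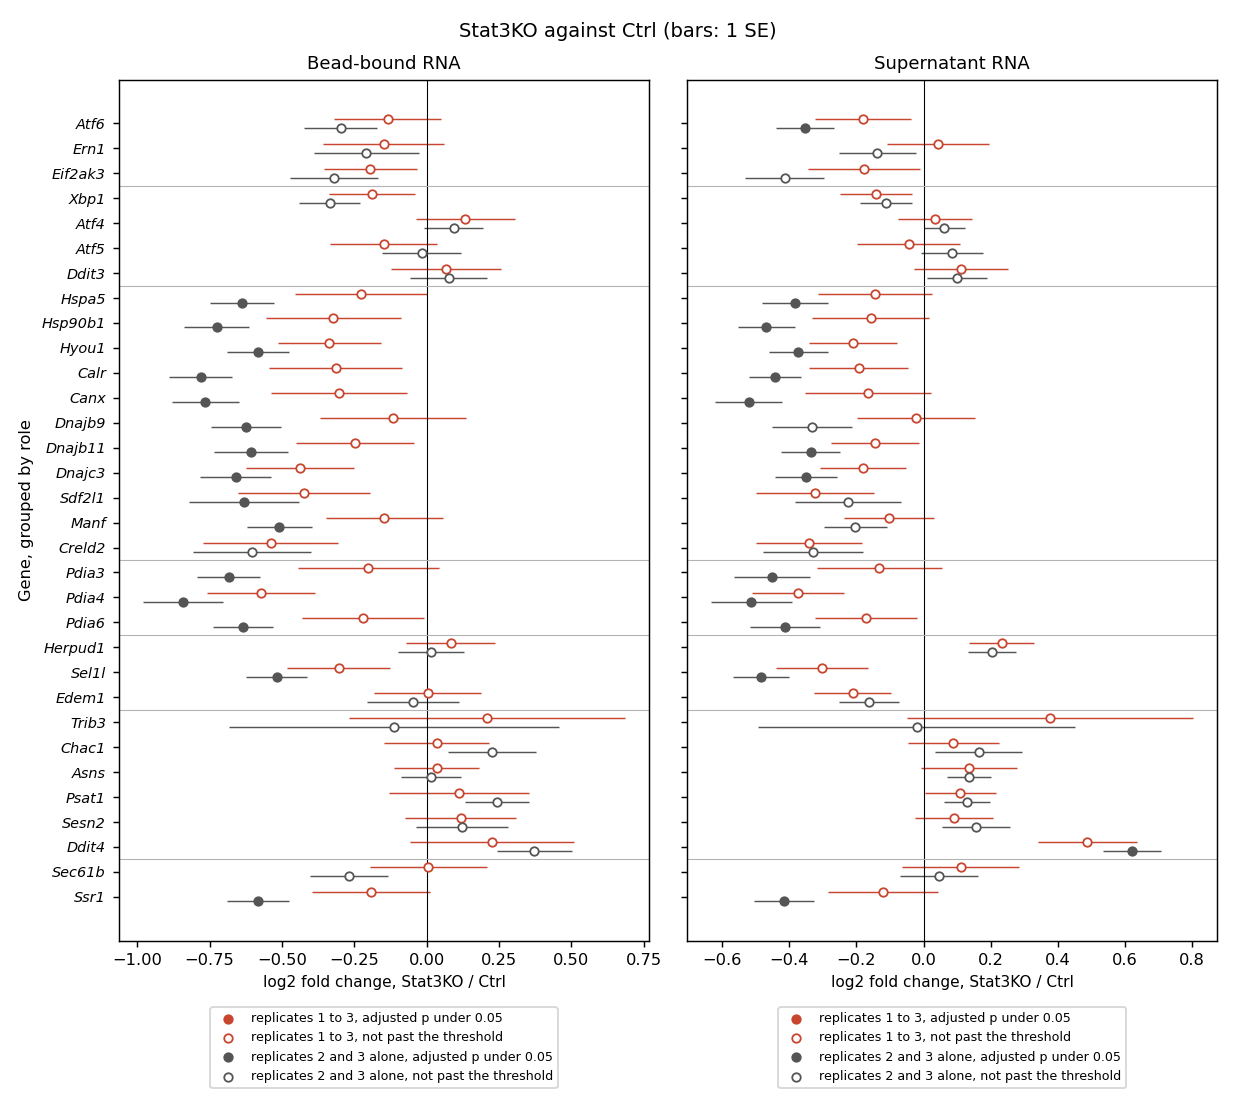
Log2 fold change of Stat3KO over Ctrl for each of the 32 genes (rows, grouped by role) in bead-bound (left) and supernatant RNA (right), with bars of 1 SE, with all 3 replicates (red) and with replicates 2 and 3 alone (grey). Filled points passed an adjusted p of 0.05: none in red, and 15 on the left and 14 on the right in grey, where all but Ddit4 lie below 0.

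Promoter elements and fold changes can be set side by side as a description. The 9 genes with an ER stress element of either form had a median log2 fold change of 0.63 between fractions in Ctrl, with 5 called higher, and of 0.45 in Stat3KO, with 2 called higher. The 20 genes with a window and neither form had a median of 0.13 in Ctrl, with 8 higher and 2 lower, and of 0.11 in Stat3KO, with 6 higher and 4 lower. The sets differ in role: the 9 are chaperones, Pdia6 and Herpud1, and the 20 include the stress response targets. Of folding and translocation genes with neither form, Sec61b (1.18), Pdia3 (1.05), Sdf2l1 (0.84), Ssr1 (0.71) and Pdia4 (0.63) were called higher in Ctrl, and Dnajb9 was not. Hyou1 (0.86) and Manf (0.82) have no window and are in neither set. The part of role was not tested. Over all genes tested 20.7% were higher and 21.2% lower in Ctrl, and 14.7% higher and 17.3% lower in Stat3KO. The 4 genes with a CARE had medians of 0.48 and 0.34, with 3 called higher in Ctrl and 1 in Stat3KO. Between genotypes no gene of these sets was called with all replicates, as for all 32 genes.

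Last, the bead to supernatant ratio was compared between genotypes in 1 model of all 12 libraries. That model has no term for the pool, so it treats the fractions of a pool as separate samples. None of the 32 ratios differed at the threshold (0 higher, 0 lower), where 0.193% of 19122 genes had a higher and 0.0105% a lower ratio in Stat3KO. DESeq2 and limma-voom called 0 as well, and 0 of the 32 had an unadjusted p under 0.05, beside 2.12% of all genes. The log2 difference of the ratios was -0.09 ± 0.32 for Hspa5, -0.17 ± 0.33 for Hsp90b1, -0.13 ± 0.30 for Calr, -0.05 ± 0.18 for Xbp1, -0.16 ± 0.17 for Herpud1, -0.11 ± 0.22 for Asns, 0.09 ± 0.21 for Atf4 and -0.05 ± 0.24 for Ddit3, each with an adjusted p of 1. The median over the 32 was -0.10 and over all genes -0.02, with 28 of 32 negative. With the pool as a block 0 of the 32 were called, where 0.288% of genes were higher and 0.0209% lower. Their median was then -0.10, with 26 of 32 negative. The genotype and fraction comparisons share their libraries, so these signs are not separate from those above.

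Among the other pathway genes 1 was called between genotypes. Eif2ak2, which encodes the interferon-induced eIF2α kinase PKR, had 9.34, 11.2 and 10.6 CPM on Ctrl beads and 37.4, 36.5 and 45.9 CPM on Stat3KO beads (1.94 ± 0.16, adjusted p = 0.000166), and no other gene of the 5 lists was called in either fraction. In supernatant it was at 7.17, 8.74 and 7.54 CPM against 10.2, 14.0 and 13.3 CPM (0.66 ± 0.16, adjusted p = 0.483), and its ratio between fractions differed by 1.27 ± 0.22 (adjusted p = 0.0274). The kinase of the same factor among the 32 genes, Eif2ak3, had all its values between 13.6 and 25.3 CPM.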

How the data were processed

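The members and gene lists were chosen with earlier results of these data known. The values deposited by the authors are raw counts per gene for 12 libraries. The submitters' processing notes name STAR 2.5.3a and mm10. The counting step, and whether it used strand, is not given in the sources used here. Reads of overlapping genes therefore cannot be told apart. The overlaps include 485 exonic bases of Eif2ak3 and Gm43292, 415 of Hsp90b1 and a pseudogene, and 68 of Ddit3 and Mars. Manf shares 166 bases with 4930524O07Rik and 146 with Dcaf1, and Ddit3 shares 105 with another Ddit3 entry. Identifiers were matched to GENCODE M21 (52403 of 52638).

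Tests used edgeR 4.0.16 under R 4.3.3, with TMM scaling, filterByExpr (min.count 10, min.total.count 15), the 2-sided quasi-likelihood test, and Benjamini-Hochberg adjustment over all genes at 0.05. DESeq2 1.42.0, limma-voom (limma 3.58.1), other scalings, no filter, the pool as a block and left-out libraries were alternatives. The fit was run on simulated counts with a fixed spread and no shared pools. That run does not bear on the pairing of fractions. The SE is the log2 fold change over the root of F. Fold changes were named for genes past the threshold, for Hspa5, Xbp1, Atf4, Ddit3, Hsp90b1, Asns, Calr and Herpud1, between genotypes for an unadjusted p under 0.05, and for the 3 largest calls of each pathway list. Values named beyond this (Eif2ak3 and Ddit4 in Ctrl, levels of Sel1l) were chosen after they were seen. Replicates are pools of mice, and p-values between genotypes measure the spread between pools. The main fits between fractions and of the ratios treat the fractions of a pool as separate samples. With the pool as a block, p-values measure the spread of the differences within pools. Same-numbered fractions deviated together (r 0.49 to 0.71 across 11698 genes in 6 of 6 pools). The pool was used as a block for this reason. Fractions of different number gave r of 0.17 to 0.39 between replicates 2 and 3, and of -0.42 to -0.63 where replicate 1 was involved. Between genotypes r of same-numbered libraries was -0.03 to 0.38.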

Additional observations from a re-analysis of the deposited data

How the results depend on the processing

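The replicate block (the pool, between fractions) gave 20 higher and 7 lower genes in Ctrl, where 29.4% and 29% of all genes were. In Stat3KO it gave 17 higher and 7 lower, where 23.7% and 26% were. It changed no call of the 32 genes between genotypes. Library totals without TMM gave 4 lower genes in Ctrl, where 27.2% of all genes were lower. Replicates 2 and 3 alone, a subset taken with the values of replicate 1 known, gave 20 higher and 7 lower genes between fractions in Ctrl. Of all genes 26.42% were higher and 26.02% lower there. In Stat3KO the subset gave 15 higher and 6 lower between fractions, where 20.85% of all genes were higher and 23% lower. Between genotypes it gave 15 lower on beads (5.1% of all genes), and 13 lower (4.22%) and 1 higher (1.07%) in supernatant. No filter on low counts also gave 1 higher in supernatant (Ddit4), where 0.1404% of all genes were higher. Leaving out 1 library gave 1 to 5 lower genes in Ctrl, where 14.42% to 24.37% of all genes were lower. In Stat3KO it gave 6 to 13 higher (6.49% to 15.6% of all genes) and 1 to 6 lower (9.07% to 18.63%). Replicates 1 and 2 alone, an alternative chosen after seeing the data, turned signs not called with all 3 replicates: on beads Hspa5 to 0.081, Hsp90b1 to 0.0029 and Asns to -0.0081, and in supernatant Hspa5 to 0.12, Hsp90b1 to 0.11 and Calr to 0.017. Leaving out 1 library also turned signs between genotypes that were not called with all 3 replicates, with ranges on beads of -0.056 to 0.13 for Asns, -0.016 to 0.27 for Atf4, -0.067 to 0.24 for Ddit3 and -0.0039 to 0.19 for Herpud1, and in supernatant of -0.023 to 0.11 for Atf4, -0.013 to 0.22 for Ddit3 and -0.34 to 0.012 for Hspa5. For the difference of ratios the ranges were -0.24 to 0.0098 for Asns, -0.063 to 0.23 for Atf4, -0.47 to 0.035 for Calr, -0.19 to 0.12 for Ddit3, -0.41 to 0.068 for Hsp90b1, -0.32 to 0.11 for Hspa5 and -0.19 to 0.031 for Xbp1. The cause was not tested. Over all genes, Stat3KO against Ctrl gave 73 higher and 5 lower on beads with edgeR, 108 and 16 with DESeq2, and 133 and 50 with no filter, and in supernatant 0 and 2, 14 and 29, and 46 and 157. With 3 pools a group, and Trib3 at as few as 15 counts, small differences were not detectable.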
